A study of Oryctolagus cuniculus with 6 samples.

Results

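The genes of the proteasome, the protease complex that degrades ubiquitin-tagged proteins, were examined in primary limbal stem cells (LSCs) of the rabbit. They were taken as every row whose symbol is PSM followed by a letter from A to G and a number, which gave 48 of the 22190 genes in the table. LSCs, the epithelial stem cells at the margin of the cornea, grew out of limbal explants, and polyA RNA was sequenced in 3 fresh and 3 preconditioned libraries. The question was how gene expression differed after preconditioning. In the fresh group the explants came from corneas that had not been stored. In the preconditioned group whole corneas were first stored for 7 days in liquid nitrogen, in cryomedium to which the inflammatory cytokine IL-1β had been added at 10 ng/mL. Freezing and IL-1β were applied together, so that their parts cannot be told apart, and freezing without the cytokine was not analysed here. The sources do not state which rabbit each library came from, so the p values measure only the spread between these libraries, which may be technical.

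The core particle of the proteasome is a barrel of stacked rings. The outer rings are made of alpha subunits (PSMA genes) and guard the entrance, and the inner rings are made of beta subunits (PSMB genes), of which PSMB5, PSMB6 and PSMB7 cut peptide bonds. A cap with ATPase subunits (PSMC) and non-ATPase subunits (PSMD) recognizes ubiquitinated proteins, unfolds them and feeds them into the core. Interferon induces the alternative catalytic subunits PSMB8, PSMB9 and PSMB10, which take the places of PSMB5, PSMB6 and PSMB7 in newly built cores and turn them into immunoproteasomes. Interferon also induces PSME1 and PSME2, which form the PA28 alpha-beta activator. Immunoproteasomes are known for producing peptides that fit MHC class I molecules, and immune cells hold them even without interferon.

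The libraries were of similar depth, from 31952352 to 34327534 counts on genes. On the first principal component the fresh libraries lay between −53.1 and −41.1, preconditioned replicate 1 at 8.13, and preconditioned replicates 2 and 3 at 58.3 and 70.4. Preconditioned replicate 1 thus stood apart from the rest of its group, and some values are also given without it. The epithelial label was met by KRT5, a keratin of basal epithelium, which lay between 7337 and 11740 CPM (a gene's counts relative to all counts of its library) in every library. Other epithelial markers differed between libraries. TP63, a factor of epithelial stem cells, was at 246, 226 and 239 CPM in the fresh libraries and at 183, 122 and 112 CPM in the preconditioned libraries, without overlap (log2 fold change −0.77, SE 0.19, adjusted p = 0.059 in edgeR and 0.0084 in DESeq2). KRT3, a keratin of differentiated corneal epithelium, had a log2 fold change of −1.21 (SE 0.72) and PAX6, a factor of eye identity, one of 0.81 (SE 0.28), with overlap and adjusted p of 0.30 and 0.11 in edgeR and 0.32 and 0.040 in DESeq2. KRT15, a keratin of limbal basal cells, did not exceed 9.71 CPM. Summed stromal markers were 473 to 955 CPM in fresh and 1043 to 2070 CPM in preconditioned libraries. COL1A1, a fibrillar collagen, was the only 1 of the 7 stromal markers that passed the test, with a log2 fold change of 2.66 and an adjusted p of 0.015. It was at 56.8, 109 and 108 CPM in the fresh libraries and at 537, 693 and 505 CPM in the preconditioned libraries. The other 6 overlapped between the groups. Of the 7 log2 fold changes 4 were above 0 and 3 below 0, the lowest being −1.27 for KERA. Summed leukocyte markers were 98.0 to 131 CPM in fresh and 124 to 313 CPM in preconditioned libraries, and most of this was CD68, a lysosomal protein that is not limited to macrophages (log2 fold change 1.14, SE 0.34, adjusted p = 0.085 in edgeR and 0.0095 in DESeq2). PTPRC, which marks all leukocytes, was at 0.20 to 0.49 CPM in fresh and 0.27 to 1.5 CPM in preconditioned libraries. CD3E, which marks T cells, had at most 3 counts in any library. All 5 leukocyte markers tested had a log2 fold change above 0, of which only CD74 did not overlap (1.30, SE 0.66, adjusted p = 0.22 in edgeR). TYROBP and ITGAM reached 6.17 and 4.16 CPM in preconditioned replicate 2. Summed endothelial markers were 2.60 to 2.99 CPM against 1.03 to 13.01 CPM, and summed melanocyte markers did not exceed 0.396 CPM, with MLANA, PMEL and TYR at 3 counts or fewer in every library. The part of these markers in the results was not tested. In RNA from whole cultures, fewer cells of a type and less RNA per cell cannot be told apart.

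Levels below are counts scaled by TMM, edgeR's correction for library composition, and given as CPM. They were tested over 15029 genes with edgeR's quasi-likelihood test, and a gene counted as differentially expressed if its adjusted p was 0.05 or less and its log2 fold change was 1 or more in either direction. Of the 48 proteasome genes, 47 passed the filter on low counts. The exception was PSMA8, the alpha subunit of germ cells, which had a single count, in preconditioned replicate 3. PSMB8, PSMB9, PSME1 and PSME2 had log2 fold changes of −0.59 or lower and PSMB10 one near 0, which gave the 5 inducible members a median of −0.90, whereas the 34 constitutive core and cap genes, counted with the cap chaperones PSMD5, PSMD9 and PSMD10, had a median of 0.04 beside 0.01 for all genes tested. With scaling by library size alone the median of the constitutive genes was −0.13 and that of all genes −0.16, so that the counts of signs given below for each class hold for TMM scaling. None of the 47 met both cutoffs in edgeR, where 2.29% of all genes did. DESeq2's Wald test, with the same cutoffs, took 1 of them, PSMB8, as differentially expressed, beside 7.78% of all genes.

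PSMB8 had the largest absolute log2 fold change of the proteasome genes tested. This inducible subunit with chymotrypsin-like activity was at 35.2, 55.2 and 36.3 CPM in the fresh libraries and at 20.5, 10.8 and 5.83 CPM in the preconditioned libraries. Every preconditioned library was below every fresh library, with fresh replicate 2 the highest and preconditioned replicate 3 the lowest. The means were 42.2 ± 11.2 and 12.4 ± 7.45 CPM (SD, n = 3 each), 3.41-fold lower after preconditioning as fitted. The log2 fold change was −1.77 (SE 0.45), with an adjusted p of 0.061 in edgeR and 7.3e-04 in DESeq2. Without preconditioned replicate 1 it was −2.35, with an adjusted p of 0.0099 in edgeR. Leaving out any other library gave −1.89 to −1.43, with an adjusted p of 0.10 to 0.19 in edgeR.

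PSMB9, the inducible counterpart of PSMB6, was at 14.2, 33.95 and 17.0 CPM in the fresh libraries and at 19.4, 8.25 and 2.24 CPM in the preconditioned libraries. The groups overlapped, because preconditioned replicate 1 was above fresh replicates 1 and 3. The log2 fold change of −1.12 (SE 0.72) did not exceed the spread between libraries, with an adjusted p of 0.33 in edgeR. It rested on single libraries, since it was −2.06 without preconditioned replicate 1 (adjusted p = 0.098 in edgeR) and −0.65 without fresh replicate 2 or preconditioned replicate 3 (adjusted p = 0.65 and 0.47 in edgeR). PSMB10, the inducible counterpart of PSMB7, was the least abundant of these subunits and had equal group means. It was at 5.77, 5.20 and 6.32 CPM in the fresh libraries and at 7.18, 6.01 and 4.08 CPM in the preconditioned libraries. The mean was 5.76 CPM in both groups, and the log2 fold change was −0.00073 (SE 0.27), with its sign depending on the scaling and the filter (adjusted p = 0.999 in edgeR).

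Of the activator subunits, PSME1 was at 94.3, 109 and 84.8 CPM in the fresh libraries and at 78.7, 64.4 and 48.6 CPM in the preconditioned libraries. PSME2 was at 77.4, 94.9 and 73.8 CPM against 64.1, 38.9 and 29.0 CPM. Neither gene overlapped between the groups, and both were highest in fresh replicate 2 and lowest in preconditioned replicate 3. The log2 fold change of PSME1 was −0.59 (SE 0.19), with an adjusted p of 0.095 in edgeR and 0.055 in DESeq2. For PSME2 it was −0.90 (SE 0.28), with an adjusted p of 0.092 in edgeR and 0.023 in DESeq2. Without preconditioned replicate 1 the log2 fold change of PSME2 was −1.28, with an adjusted p of 0.0071 in edgeR, and that of PSME1 was −0.78, with an adjusted p of 0.022 in edgeR. Without any other library the adjusted p in edgeR was 0.16 to 0.25 for PSME2 and 0.14 to 0.26 for PSME1, and the log2 fold changes were as small as −0.67 and −0.42. These subunits build 1 ring together, and the ratio of PSME2 to PSME1 in FPKM (counts per length and per library total) was 0.629, 0.670 and 0.668 in the fresh libraries. In the preconditioned libraries it was 0.625, 0.465 and 0.459, so that replicates 2 and 3 were below every other library.

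**Figure D1:**
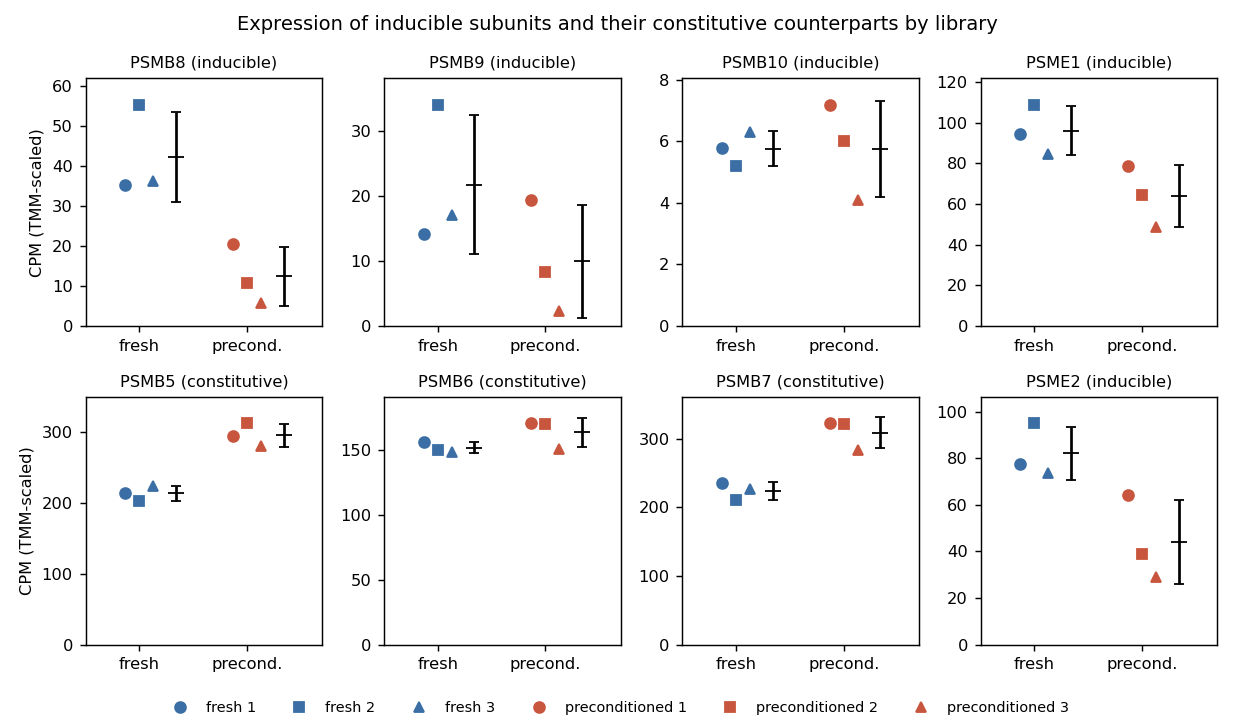
Level of the 5 interferon-inducible genes and of PSMB5, PSMB6 and PSMB7 in each library, in TMM-scaled CPM on axes from 0. Points are libraries, with a symbol for each replicate number, and bars are the mean ± SD of 3 libraries. PSMB8, PSME1 and PSME2 are lower in every preconditioned library, PSMB5 and PSMB7 higher, and PSMB9, PSMB10 and PSMB6 overlap.

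Of the constitutive catalytic subunits, PSMB5 and PSMB7 had higher values in every preconditioned library by less than the fold cutoff, and PSMB6 overlapped between the groups. PSMB5, the constitutive subunit with chymotrypsin-like activity, was at 214, 203 and 224 CPM in the fresh libraries and at 295, 313 and 281 CPM in the preconditioned libraries. The fitted level was 1.38-fold higher after preconditioning, a log2 fold change of 0.47 (SE 0.10), with an adjusted p of 0.049 in edgeR and 0.0040 in DESeq2. PSMB5 was the only proteasome gene with an adjusted p of at most 0.05 at any fold change in edgeR, 1 of 47 beside 5.08% of all genes. Its adjusted p was 0.094 to 0.18 when any library but preconditioned replicate 1 was left out, and 0.025 without that library. It was 0.094 with library size alone, 0.057 without a filter on low counts and 0.054 without robust estimation.

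PSMB7, with trypsin-like activity, was at 235, 210.4 and 226 CPM in the fresh libraries and at 323, 322 and 283 CPM in the preconditioned libraries. The groups did not overlap, and the log2 fold change was also 0.47 (SE 0.11), with an adjusted p of 0.054 in edgeR and 0.0084 in DESeq2. PSMB6, with caspase-like activity, was at 157, 150.0 and 149 CPM against 171, 170.0 and 150.5 CPM, with preconditioned replicate 3 inside the fresh range. Its log2 fold change was 0.11 (SE 0.10; adjusted p = 0.49 in edgeR), and was below 0 with scaling by library size alone. Leaving out 1 library gave PSMB6 0.07 (without preconditioned replicate 1) to 0.17 (without preconditioned replicate 3).

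The inducible subunit was set against its constitutive counterpart within each library in FPKM. PSMB8 made up 11.97%, 18.4% and 11.8% of the sum of PSMB8 and PSMB5 in the fresh libraries and 5.44%, 2.79% and 1.69% in the preconditioned libraries, means of 14.1% ± 3.74 and 3.31% ± 1.93 (SD, n = 3 each). PSMB9 made up 8.68%, 19.2% and 10.7% of its sum with PSMB6, against 10.6%, 4.85% and 1.54%. PSMB10 made up 1.81%, 1.82% and 2.05% of its sum with PSMB7, against 1.64%, 1.38% and 1.07%. The constitutive subunit was therefore the more abundant transcript of each pair in all 6 libraries. On the log2 scale with 0.1 added to each FPKM, the ratio of PSMB8 to PSMB5 differed by −2.37 between the groups, 5.19-fold, with no overlap. The ratio of PSMB10 to PSMB7 differed by −0.49, also with no overlap, and the ratio of PSMB9 to PSMB6 differed by −1.59 with overlap. The 2-sided exact permutation p was 0.10 for the first and second of these and 0.20 for PSMB9, and 0.15, 0.15 and 0.20 after adjustment over the 3 ratios. With 3 libraries against 3 the smallest p that this test can give is 0.10, so none could reach 0.05.

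**Figure D2:**
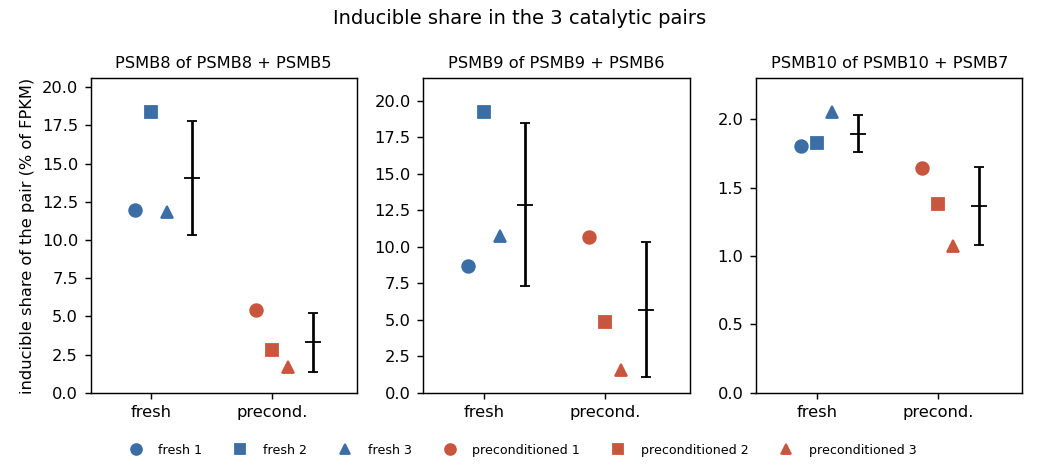
Share of the inducible subunit in the summed FPKM of each catalytic pair, in percent on axes from 0. Points are libraries and bars are the mean ± SD of 3 libraries. The PSMB8 share is 11.8% or more in every fresh library and 5.44% or less in every preconditioned library, and the PSMB9 shares overlap.

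Among the alpha subunits, the structural outer ring of the core, 5 of 7 had a log2 fold change above 0 and 2 below 0, and none passed the test. PSMA3 was at 201, 202 and 186 CPM in the fresh libraries and at 229, 229.7 and 221 CPM in the preconditioned libraries, without overlap, with a log2 fold change of 0.21 (SE 0.10; adjusted p = 0.20 in edgeR). With scaling by library size alone the log2 fold change of PSMA3 was 0.04. PSMA7 was at 209.7, 209 and 210.3 CPM against 208, 172 and 157 CPM, with a log2 fold change of −0.23 (SE 0.13; adjusted p = 0.26 in edgeR). The spread of PSMA7 was wider in the preconditioned group, with an SD of 26.4 CPM against 0.446 CPM in the fresh group. In the constitutive beta ring 6 of 7 log2 fold changes were above 0. PSMB2, a non-catalytic subunit, was the exception at 136, 129.5 and 124 CPM against 142, 121 and 96.7 CPM, with a log2 fold change of −0.12 (SE 0.15; adjusted p = 0.63 in edgeR), which was 0.02 without preconditioned replicate 3 and −0.27 without preconditioned replicate 1.

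In the cap, 8 of 17 log2 fold changes were above 0 and 9 below 0, with a median of −0.03, and none passed the test. PSMC6, one of the ATPases that unfold substrates, was at 149, 130.4 and 149.7 CPM in the fresh libraries and at 182, 171 and 149.9 CPM in the preconditioned libraries. Its log2 fold change was the highest of the 6 ATPases at 0.23 (SE 0.12; adjusted p = 0.24 in edgeR), and the lowest preconditioned library was barely above the highest fresh library. With scaling by library size alone the log2 fold change of PSMC6 was 0.06. PSMC4 had the lowest at −0.29 (SE 0.25; adjusted p = 0.46 in edgeR), with 96.5, 117 and 112 CPM against 123.1, 84.0 and 59.5 CPM. Its preconditioned replicate 1 was above every fresh library, and replicates 2 and 3 were below every fresh library. Its log2 fold change was −0.61 without preconditioned replicate 1 (adjusted p = 0.048 in edgeR) and −0.07 without preconditioned replicate 3 (adjusted p = 0.86 in edgeR). Of the 11 non-ATPase subunits, PSMD6 had the highest log2 fold change, 0.20 (SE 0.11; adjusted p = 0.24 in edgeR), with 154, 148 and 151 CPM against 187, 178 and 157 CPM. PSMD4, a ubiquitin receptor, had the lowest, −0.17 (SE 0.12; adjusted p = 0.38 in edgeR), with 152, 157 and 162 CPM against 158, 139 and 123.2 CPM. PSMD6 did not overlap between the groups and PSMD4 did. With scaling by library size alone their log2 fold changes were 0.03 and −0.33. Without preconditioned replicate 1 the log2 fold change of PSMD4 was −0.27, and without preconditioned replicate 3 it was −0.08.

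The chaperones that assemble the complex and do not stay in it were divided. PSMD10, a chaperone of the cap also known as gankyrin, was at 89.6, 81.3 and 87.7 CPM in the fresh libraries and at 109, 118 and 122 CPM in the preconditioned libraries. Its log2 fold change was 0.43 (SE 0.10) without overlap, with an adjusted p of 0.053 in edgeR and 0.013 in DESeq2. PSMD9, another chaperone of the cap, was at 21.2, 21.1 and 27.3 CPM against 19.8, 17.1 and 15.2 CPM. It did not overlap either, with a log2 fold change of −0.42 (SE 0.17; adjusted p = 0.16 in edgeR). The third chaperone of the cap, PSMD5, and the core chaperones PSMG1 to PSMG4 had log2 fold changes between −0.34 and 0.11, and their groups overlapped.

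The remaining members bind the ends of the core. PSME3, which forms the nuclear activator PA28 gamma and is not known as an interferon target, was at 95.6, 96.7 and 110.0 CPM in the fresh libraries and at 91.0, 77.6 and 65.8 CPM in the preconditioned libraries. Its log2 fold change was −0.37 (SE 0.14; adjusted p = 0.14 in edgeR). PSMF1, which encodes PI31 and inhibits the core in vitro, was at 29.4, 35.4 and 29.2 CPM against 26.9, 21.8 and 20.8 CPM, with a log2 fold change of −0.44 (SE 0.15; adjusted p = 0.11 in edgeR). Neither gene overlapped between the groups, in the same direction as PSME1 and PSME2. PSME4, the nuclear activator PA200, was at 161, 142 and 153 CPM against 142, 163 and 163 CPM, with a log2 fold change of 0.04 (SE 0.11; adjusted p = 0.84 in edgeR) that was below 0 with scaling by library size alone. PSMB11, the catalytic subunit of the thymus, had 3 to 19 counts in a library and a log2 fold change of −0.66 (SE 0.63; adjusted p = 0.51 in edgeR).

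**Figure D3:**
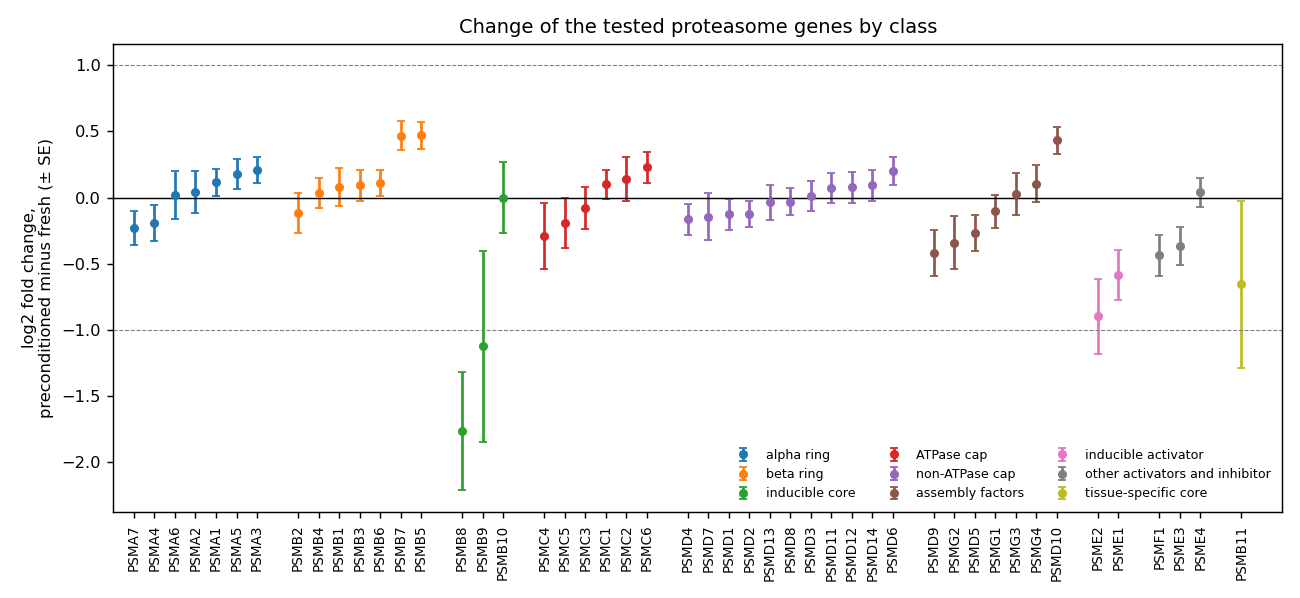
Log2 fold change, preconditioned minus fresh, of the 47 proteasome genes tested, with bars of 1 standard error, ordered within each class. Dashed lines mark the cutoff of 1 in either direction. The constitutive rings and caps lie between −0.29 and 0.47, the assembly factors between −0.42 and 0.43, and PSMB8 and PSMB9 lie below −1.

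Counted over all members, 3 of 47 had an unadjusted p under 0.05 in edgeR and a higher level after preconditioning (PSMB5, PSMB7 and PSMD10), beside 15.5% of all genes. A lower level at that p was found for 6 (PSMB8, PSMD9, PSME1, PSME2, PSME3 and PSMF1), beside 15.1% of all genes. DESeq2 gave an adjusted p of at most 0.05 at any fold change for 5 members (PSMB5, PSMB7, PSMB8, PSMD10 and PSME2), beside 19.1% of all genes. In each of these 3 counts the share of the members, 6.38%, 12.8% and 10.6%, was below that of all genes. In TMM-scaled CPM the groups did not overlap for 6 members with higher values, all of them constitutive, beside 17.9% of all genes. They did not overlap for 8 members with lower values, beside 18.8% of all genes, of which 3 were constitutive (PSMA7, PSMD2 and PSMD9), 3 inducible (PSMB8, PSME1 and PSME2) and the others PSME3 and PSMF1. These counts hold for TMM scaling. In FPKM, which is scaled by the library total, PSMA3, PSMC6 and PSMD6 overlapped, and PSMA4 was lower without overlap. Without preconditioned replicate 1, 11 members in place of 1 had an adjusted p of at most 0.05 in edgeR (PSMA7, PSMB5, PSMB7, PSMB8, PSMC4, PSMD5, PSMD10, PSME1, PSME2, PSME3 and PSMF1), beside 25.2% of all genes in that fit. Among them the log2 fold change was −0.36 for PSMA7 (adjusted p = 0.040 in edgeR), −0.50 for PSME3 (adjusted p = 0.031 in edgeR) and −0.57 for PSMF1 (adjusted p = 0.030 in edgeR). Without preconditioned replicate 3 they were −0.14, −0.25 and −0.36, with adjusted p of 0.53, 0.29 and 0.25 in edgeR. In the fit without preconditioned replicate 1, PSMB8 and PSME2 met both cutoffs, 2 of 47 beside 9.99% of all genes. The standard errors of the 34 constitutive genes were 0.10 to 0.25 on the log2 scale, so differences of this size could not be told from 0.

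The summed level of the 34 constitutive genes was 5622 ± 47.9 CPM in fresh and 5839 ± 614 CPM in preconditioned libraries (SD, n = 3 each). The sum of the 5 inducible genes was 248 ± 43.7 and 136 ± 50.5 CPM. It was 227, 298 and 218 CPM in the fresh libraries and 189.8, 128 and 89.7 CPM in the preconditioned libraries, without overlap between the groups. The constitutive sum differed between the groups by less than the spread of the preconditioned libraries.

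The libraries of the preconditioned group also had an order among themselves, which was noticed after the values had been seen. In 37 of the 47 members, replicate 1 was the highest and replicate 3 the lowest, beside 23.0% of all genes. This covered all 5 inducible genes and 27 of the 34 constitutive genes, but its size differed. Relative to the fresh mean, the mean log2 CPM of the constitutive genes was 0.18, 0.02 and −0.17 in preconditioned replicates 1, 2 and 3, and that of the inducible genes was −0.27, −0.95 and −1.78. In the fresh group the constitutive genes lay within 0.01 of their mean in every library, whereas the inducible genes were at −0.16, 0.29 and −0.12. PSMB8, PSMB9, PSME1 and PSME2, but not PSMB10, were highest of the fresh group in replicate 2 and also had this order in the preconditioned group. Together with 8 other members that made 12 of 47, beside 8.08% of all genes.

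Lists of related genes were read from the same fit. Of 43 symbols listed for interferon-induced genes, 28 were found in the table and 27 were tested. The list was matched by symbol, so that a row without one, such as LOC100349257, described as guanylate-binding protein 5, was not counted, and DDX58 in it is an older symbol of RIGI, which was found. Of these, 26 had a log2 fold change below 0, with a median of −1.40, and none met both cutoffs in edgeR. Among all genes tested, 7434 of 15029 were below 0. An unadjusted p under 0.05 in edgeR was found for 5 of the 27, all of them lower, beside 15.1% of all genes, and 3 met both cutoffs in DESeq2, beside 7.78% of all genes. HERC5, the ligase for the ubiquitin-like ISG15, was at 71.8, 136 and 72.3 CPM in the fresh libraries and at 36.1, 19.95 and 2.77 CPM in the preconditioned libraries (log2 fold change −2.25, SE 0.80, adjusted p = 0.12 in edgeR). For HERC5 this was −3.05 without preconditioned replicate 1 and −1.73 without preconditioned replicate 3. CXCL10, a chemokine for T cells, was at 39.2, 273 and 68.0 CPM against 67.2, 18.9 and 1.02 CPM (log2 fold change −2.12, SE 1.29, adjusted p = 0.30 in edgeR). For CXCL10 this was −3.68 without preconditioned replicate 1 and −0.88 without fresh replicate 2. The order of libraries described for PSMB8 was found in 25 of these 27 genes. Their mean log2 CPM relative to the fresh mean was −0.48, 0.75 and −0.27 in the fresh libraries and −0.25, −1.58 and −3.81 in the preconditioned libraries. By these means preconditioned replicate 1 lay within the fresh range for interferon-induced genes and below it for the 5 inducible proteasome genes, of which PSMB8, PSME1 and PSME2 were below the fresh range, PSMB9 within it and PSMB10 above it.

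Of the 11 genes listed for peptide loading onto MHC class I, 10 were in the table and all 10 were tested. Their median log2 fold change was −0.46. None met both cutoffs in edgeR. An unadjusted p under 0.05 came with a lower level for 4 of the 10, beside 15.1% of all genes, and with a higher level for 1, beside 15.5%. DESeq2 took 3 as differentially expressed, beside 7.78% of all genes. TAP2, a subunit of the peptide transporter, was at 35.7, 65.7 and 42.7 CPM in the fresh libraries and at 27.3, 17.5 and 11.4 CPM in the preconditioned libraries (log2 fold change −1.36, SE 0.36, adjusted p = 0.067 in edgeR and 0.0028 in DESeq2). NLRC5, the transactivator of MHC class I genes, was at 1.25, 7.004 and 3.64 CPM against 1.80, 0.224 and 0.198 CPM (log2 fold change −2.41, SE 0.997, adjusted p = 0.16 in edgeR and 0.031 in DESeq2). TAP2 did not overlap between the groups, and NLRC5 did. Without preconditioned replicate 1 both met the cutoffs in edgeR, TAP2 at −1.75 (adjusted p = 0.019 in edgeR) and NLRC5 at −4.22 (adjusted p = 0.020 in edgeR). Without any other library their adjusted p in edgeR was 0.13 to 0.20 and 0.17 to 0.38.

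Of 16 genes of interferon signalling listed, 13 were tested, with a median log2 fold change of −0.09. None met both cutoffs in edgeR. An unadjusted p under 0.05 came with a lower level for 2 of the 13, beside 15.1% of all genes, and with a higher level for 1, beside 15.5%. DESeq2 took 1 as differentially expressed, beside 7.78% of all genes. This was IRF1, an interferon regulatory factor, with a log2 fold change of −1.09 (SE 0.37; adjusted p = 0.11 in edgeR and 0.022 in DESeq2). It was at 41.4, 72.2 and 41.3 CPM in the fresh libraries and at 36.9, 19.9 and 16.2 CPM in the preconditioned libraries, without overlap. The largest differences were those of USP18, a feedback inhibitor, at 88.3, 211 and 119 CPM against 88.4, 31.9 and 1.25 CPM (log2 fold change −1.78, SE 1.13, adjusted p = 0.32 in edgeR). SOCS1, another feedback inhibitor, was at 0.898, 2.90 and 1.48 CPM against 0.882, 0.799 and 0.659 CPM (log2 fold change −1.17, SE 0.50, adjusted p = 0.16 in edgeR). In USP18 preconditioned replicate 1 was at the level of fresh replicate 1. Leaving out 1 library gave USP18 a log2 fold change of −3.08 (without preconditioned replicate 1) to −1.21 (without preconditioned replicate 3), and SOCS1 one of −0.61 without fresh replicate 2.

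Factors that build or regulate the constitutive proteasome did not pass the test. None of 7 partners outside the PSM names and none of 5 regulators met both cutoffs in edgeR or in DESeq2, and 3 of these 12 had an unadjusted p under 0.05 in edgeR, all with a higher level, beside 15.5% of all genes. POMP, the maturation factor of the core, was at 209, 187 and 211 CPM in the fresh libraries and at 237, 273 and 246 CPM in the preconditioned libraries (log2 fold change 0.31, SE 0.11, adjusted p = 0.11 in edgeR). PAAF1, a chaperone of the cap, was at 41.6, 35.2 and 27.4 CPM against 49.3, 47.5 and 42.5 CPM (log2 fold change 0.42, SE 0.17, adjusted p = 0.15 in edgeR). DDI2, the protease that activates the transcription factor of proteasome genes, was at 18.4, 21.6 and 23.8 CPM against 24.3, 34.8 and 28.5 CPM (log2 fold change 0.46, SE 0.18, adjusted p = 0.14 in edgeR). The groups of POMP, PAAF1 and DDI2 did not overlap. The log2 fold change of PAAF1 was 0.27 without fresh replicate 3, and that of DDI2 was 0.56 without preconditioned replicate 1 (adjusted p = 0.049 in edgeR) and 0.31 without preconditioned replicate 2. NFE2L2, a stress-response transcription factor, was at 331, 328 and 296 CPM against 326, 200.2 and 285 CPM and overlapped (log2 fold change −0.24, SE 0.18, adjusted p = 0.41 in edgeR). For NFE2L2 this was −0.06 without preconditioned replicate 2 and −0.40 without preconditioned replicate 1.

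**Figure D4:**
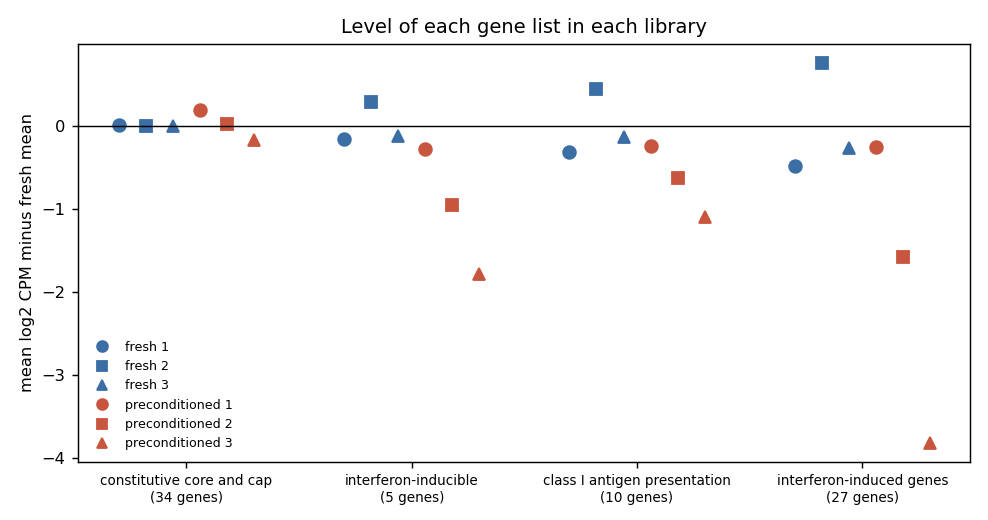
Mean log2 CPM of 4 gene lists in each library, minus the mean of the fresh group. Points are libraries and the line marks 0. The mean of the 34 constitutive genes lies between −0.17 and 0.18, while the inducible proteasome genes, the class I genes and the interferon-induced genes are highest in fresh replicate 2 and lowest in preconditioned replicate 3.

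Outside the members, 14982 genes were ranked by how closely their log2 CPM followed the mean of the 5 inducible genes over the 6 libraries. The 5 closest were HSH2D, an adaptor with an SH2 domain, DTX3L, a ubiquitin ligase, LOC127488823, described as a zinc finger protein, RIGI, a sensor of viral RNA, and LOC100349257. Their Pearson's r was 0.994 to 0.997, which is a description over 6 libraries of similar depth. HSH2D was at 8.43, 18.1 and 9.38 CPM in the fresh libraries and at 8.09, 3.10 and 0.626 CPM in the preconditioned libraries.

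In the RefSeq annotation of the rabbit assembly mOryCun1.1, used only for the order of genes, PSMB9, TAP1, PSMB8 and TAP2 follow each other in the MHC region. TAP1, the other subunit of the peptide transporter, had a log2 fold change of −1.16 (SE 0.41; adjusted p = 0.11 in edgeR), which put all 4 below −1. RLA-DMB, next to PSMB9 on the other side, went the other way, with a log2 fold change of 0.75 (SE 0.38; adjusted p = 0.22 in edgeR). PSME2 and PSME1 lie in another stretch that runs IRF9, RNF31, PSME2, EMC9, PSME1. In it the log2 fold change was −0.85 (SE 0.46) for IRF9, −0.28 (SE 0.11) for RNF31 and −0.14 (SE 0.19) for EMC9, so that EMC9, which lies between PSME2 and PSME1, was nearer to 0 than either. DCAF11, beyond PSME1, had a log2 fold change of −0.04 (SE 0.10). TAP1, RLA-DMB, IRF9, RNF31, EMC9 and DCAF11 were chosen by position after values had been seen. PSMB10, which had the same mean in both groups, is in neither stretch. Whether position had a part in these values was not tested.

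For 6 members the table also held a row without a gene symbol whose description names it as a copy, and reads of near-identical copies may have been divided between them. The copy held 11.6% to 20.8% of the summed counts for PSMA2, 14.1% to 16.0% for PSMA6 and 9.03% to 12.6% for PSMC1. For PSMC5, PSMD10 and PSME3 it held at most 3.47%. The values of PSMA2, PSMA6 and PSMC1 are therefore less certain than those of the other subunits. With the counts of gene and copy summed, the log2 fold change of PSMA2 was 0.15 in place of 0.04 (adjusted p = 0.53 in edgeR).

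In FPKM, which is per length and lets genes be compared, the constitutive beta subunits were among the most abundant members. Over the 6 libraries the means of the constitutive beta subunits ranged from 149 (PSMB2) to 263 (PSMB7), and those of the alpha subunits from 28.9 (PSMA5) to 209 (PSMA3). The caps covered 52.8 (PSMD1) to 151 (PSMD2), and the assembly factors 14.4 (PSMG3) to 62.2 (PSMD10). Inducible PSMB8, PSMB9 and PSMB10 were at 20.6, 19.8 and 4.31, below every constitutive beta subunit. PSMB8 was at 32.6 ± 8.68 FPKM in the fresh group and 8.54 ± 5.30 FPKM in the preconditioned group (SD, n = 3 each). PSME1 and PSME2, at 80.2 and 48.8 FPKM, were closer to the caps. Subunits that occur once per ring differed in FPKM, so these levels do not give the number of complexes, and PSMA5, far below the other alpha subunits, depends on the 1 length that the authors used for it.

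**Figure D5:**
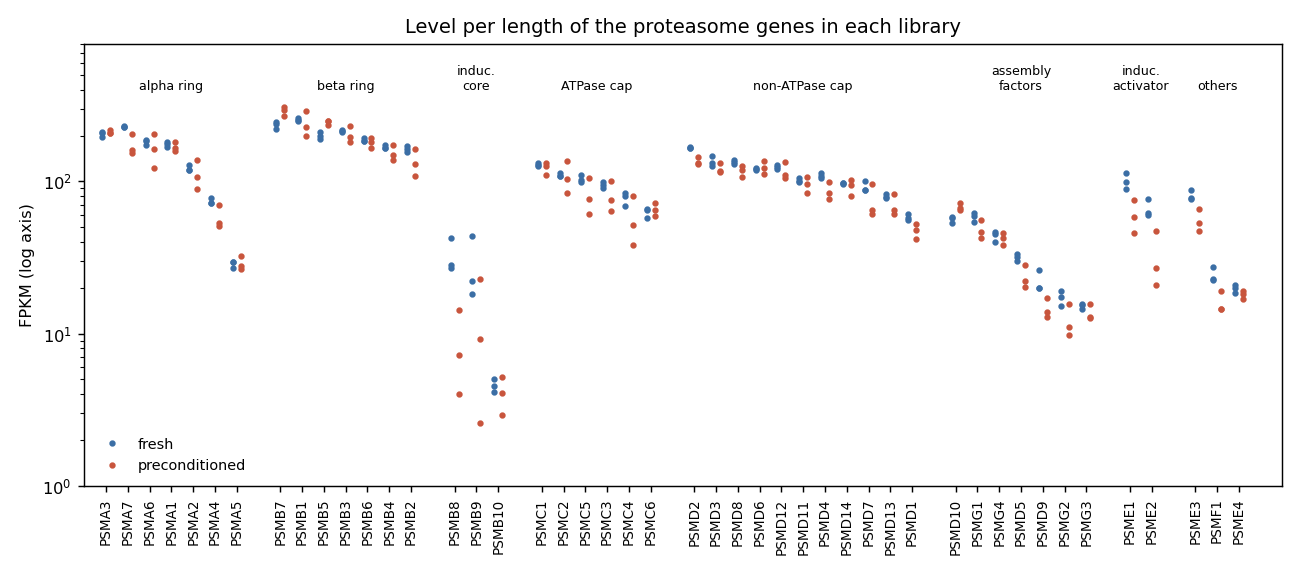
FPKM of each proteasome gene in each library on a log axis, ordered by mean within each class, without PSMA8 and PSMB11. Each point is a library. The inducible core genes lie below the constitutive beta ring in every library, and the libraries of PSMB8 and PSMB9 spread more widely than those of the constitutive genes.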

How the data were processed

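RNA-seq of 3 fresh and 3 preconditioned libraries was used, grouped by the sample titles. The authors aligned reads with hisat2 2.1.0 and deposited unnormalized counts per gene from htseq-count 0.11.2. The build, annotation and strand setting are not given in the sources used here, so a gene and an antisense partner cannot be told apart. FPKM values deposited by the authors equal the count divided by the library total and by 1 length per gene, whose definition is not given. RNA was extracted with TRIzol per the labels and with an Omega kit per the methods.

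Counts were filtered (filterByExpr), scaled by TMM and tested with edgeR 4.0.16 (quasi-likelihood, robust) in R 4.3.3 with the group as the only factor. Adjusted p values follow Benjamini and Hochberg, over all 15029 genes tested. Shares for DESeq2 1.42.0 are over the 15293 genes to which it gave an adjusted p. Standard errors were derived from the F statistic. With at least 31952352 counts in each library, the spread between libraries rather than depth limits precision, except for genes with few counts. Within a group, libraries differed by more than sampling noise (chi-square of 51.0 to 156 per degree of freedom), and each was counted as 1 sample. All 48 members matched a gene ID of RefSeq's gene table, which held no sequences. Alternatives were DESeq2, other scalings and filters, limma 3.58.1 on log2 FPKM, the replicate number as a block, and leaving out each library.

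Members and lists were chosen with earlier results of these data known. Given in full were the inducible genes, PSMB5 to PSMB7, PSME3, PSME4, PSMF1, and the highest and lowest log2 fold change of each class. From each related list the genes called and the 2 with the largest absolute log2 fold change were named, and the 5 genes most like the inducible members. Other genes were named after values had been seen.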

Additional observations from a re-analysis of the deposited data

How the results depend on the processing

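The number of differentially expressed genes, 344, was 1190 with DESeq2, 565 with scaling by library size alone and 521 with limma on log2(FPKM + 0.1), and 14 to 1546 when 1 library was left out, with the highest count without preconditioned replicate 1. The number of proteasome genes meeting both cutoffs, 0, was 1 with DESeq2, with library size alone and with limma on log2(FPKM + 1) and log2(FPKM + 0.1), PSMB8 in each case, and 0 to 2 when 1 library was left out. The number with an adjusted p of at most 0.05, 1, was 5 with DESeq2, 3 with a filter of at least 1 CPM in 3 libraries, and 0 without a filter or without robust estimation. It was 0 to 11 when 1 library was left out, 0 for each library but preconditioned replicate 1. With library size alone and with either limma fit it was 1 as well, but PSMB8 in place of PSMB5. With the replicate number as a block it was 0, and the number of differentially expressed genes was 30. Whether the numbers pair the libraries is not known, since the sources do not state the animals. The correlation of the deviations of same-numbered libraries from their group means was −0.067, −0.073 and −0.109. With 3 libraries in each group this cannot decide the question, and the block is given only here. The cause of these changes was not tested.

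The median log2 fold change of the constitutive genes, 0.04, was −0.14 with limma on log2(FPKM + 1) and on log2(FPKM + 0.1), and −0.06 to 0.14 when 1 library was left out. The median of all genes was −0.09 and −0.15 in these limma fits and −0.01 without preconditioned replicate 1, where that of the constitutive genes was −0.06. With library size alone the constitutive median was −0.13 and that of all genes −0.16, so that whether the constitutive genes lay above or below all genes depended on the setting. The median of the inducible genes stayed between −1.28 and −0.65 when 1 library was left out. The difference in the log2 ratio stayed between −2.83 and −1.97 for PSMB8 to PSMB5, −2.28 and −0.83 for PSMB9 to PSMB6, and −0.64 and −0.33 for PSMB10 to PSMB7. Of the 30 genes named by rule, 26 kept the sign of their log2 fold change in every alternative that gave them a value, which for SOCS1 leaves out the filter of at least 1 CPM in 3 libraries. PSMB10 was above 0 with DESeq2 (0.00052), its size factors (0.0052) and the filter of 1 CPM (0.0032), and ranged from −0.20 without preconditioned replicate 1 to 0.20 without preconditioned replicate 3. PSMB6 was at −0.061 and PSME4 at −0.13 with library size alone, and they were at −0.062 and −0.13 with log2(FPKM + 1) and at −0.063 and −0.13 with log2(FPKM + 0.1). PSME4 ranged from −0.011 without fresh replicate 2 to 0.091 without preconditioned replicate 1, and PSMB2 from −0.27 without preconditioned replicate 1 to 0.018 without preconditioned replicate 3. Summing copies, an alternative chosen after seeing the data, changed no call of the 6 genes.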

Other observations

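The receptors of interferon gamma, which induces the immunoproteasome, went in opposite directions without reaching the threshold. IFNGR1, the ligand-binding chain, was at 393, 256 and 327 CPM in the fresh libraries and at 239, 224 and 138 CPM in the preconditioned libraries, with a log2 fold change of −0.70 (SE 0.24; adjusted p = 0.11 in edgeR and 0.049 in DESeq2). IFNGR2, the signalling chain, was at 232, 287 and 324 CPM against 387, 526 and 367 CPM, with a log2 fold change of 0.60 (SE 0.19; adjusted p = 0.088 in edgeR and 0.036 in DESeq2). Neither gene overlapped between the groups. In the class I list, CANX, a chaperone of the endoplasmic reticulum that folds new class I chains, was at 492, 469.8 and 478 CPM in the fresh libraries and at 612, 712 and 698 CPM in the preconditioned libraries, with a log2 fold change of 0.49 (SE 0.11; adjusted p = 0.051 in edgeR and 0.0041 in DESeq2). B2M, the light chain of class I molecules, was at 549, 923 and 598 CPM against 627, 561 and 208 CPM and overlapped, with a log2 fold change of −0.57 (SE 0.41; adjusted p = 0.39 in edgeR). These genes were chosen after their values had been seen.

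The row without a symbol that is described as a copy of PSMA2, LOC100355217, had 823, 910 and 1085 counts in the fresh libraries and 1558, 1440 and 1086 counts in the preconditioned libraries. Its log2 fold change was 0.71 (SE 0.16; adjusted p = 0.049 in edgeR), beside 0.04 (SE 0.16) for PSMA2 itself. Whether these reads come from the copy or from PSMA2 was not tested.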
